A study of Rattus norvegicus with 12 samples.

Results

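The genes described here encode the glutathione, peroxiredoxin and thioredoxin systems, the main thiol-based defences of a cell against peroxides and reactive electrophiles, together with superoxide dismutases, catalase, quinone reductases and the regulators NRF2 and KEAP1. They were chosen by annotation and symbol alone: protein-coding genes of the deposited rat table named as glutathione transferases (soluble and microsomal), glutathione peroxidases, peroxiredoxins, thioredoxins and their relatives, glutaredoxins, enzymes of glutathione synthesis and reduction, or the other kinds just listed. The rule found 71 genes among 30560, of which 19988 were protein coding. The sulfiredoxin gene Srxn1, which the rule also names, was not analysed here. Retinal RNA came from 6 rats given NMDA and 6 rats given PBS, all by injection into the vitreous of 2 µL, with NMDA at 20 mM. NMDA activates a class of glutamate receptors, and its injection serves as a model of the excitotoxic loss of ganglion cells in glaucoma. The sources used here do not state the rats' strain, sex or age, the time from injection to collection, or the genome build of the deposited coordinates. Each rat gave 1 library, named here by group and label number (NMDA 1 to NMDA 6, PBS 1 to PBS 6).

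Glutathione, a small thiol peptide, is made by glutamate-cysteine ligase and glutathione synthetase, spent by peroxidases and transferases, and recycled by glutathione reductase at the cost of NADPH. Peroxiredoxins remove peroxides in parallel and are recharged by thioredoxins, which thioredoxin reductases keep reduced, again with NADPH. The transcription factor NRF2 (Nfe2l2), which KEAP1 otherwise marks for degradation, drives many of these genes, and in the retina much of the glutathione is held by Müller glia.

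The level of a gene is its CPM, its count relative to the library's TMM-adjusted total. Differences are on the log2 scale, NMDA over PBS, from edgeR's quasi-likelihood fit across 16260 genes (n = 6 libraries per group). Their SE was derived as the size of the difference divided by the square root of that test's F statistic. A gene is said to have risen or fallen where its Benjamini-Hochberg adjusted p over all tested genes was below 0.05. Libraries held 16415611 to 34022023 counts, and the 71 genes took 0.2545% to 0.296% of them in NMDA libraries and 0.2355% to 0.2481% in PBS libraries, ranges that did not overlap. These shares are of library totals without TMM and weigh abundant genes most. How often other sets of genes separate in this way was not tested. The first principal component of all tested genes (44.67% of the variance) separated the groups. On the second (15.7%), NMDA 1 was the highest library (62.16) and NMDA 3 the lowest (-32.46). In RNA from whole retina, fewer cells of a type and less RNA per cell cannot be told apart.

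Of the 71 genes, 61 passed the filter on low counts and were tested. Seen against the background of all tested genes, 17 of the 61 rose (27.9%; background 20.4%) and 5 fell (8.2%; background 17.5%). Among tested protein-coding genes alone, 21.4% were higher and 18.5% lower. The share called in either direction, 36.1%, was close to the 37.9% of all tested genes. Scaling by library size alone in place of TMM gave 4233 genes higher and 2323 lower (64.6% of calls higher), against 3315 and 2852 (53.8%) here, and 23 and 4 of the 61. The median difference was 0.14 over the 61 genes, against 0.014 over all tested genes and 0.017 over tested protein-coding genes, and 45 of the 61 had a difference above 0. Rises of at least 2-fold were found for 2 of them, Gpx1 and Mgst1 (3.28%; background 4.58%), and falls of at least 2-fold for none (background 1.48%). The NMDA range lay wholly above the PBS range for 5 genes (8.2%; background 9.43%), namely Gpx1, Txn1, Gsto1, Prdx5 and Txndc11. It lay wholly below for 4 genes (6.56%; background 8.66%), namely Gstm2, Mgst3, Txnrd3 and Nfe2l1. In the 7 roles where no gene fell in edgeR's test, 0 genes were lower at an unadjusted p below 0.05 either. The counts by role that follow stand beside the same background of 20.4% higher and 17.5% lower.

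**Figure D1:**
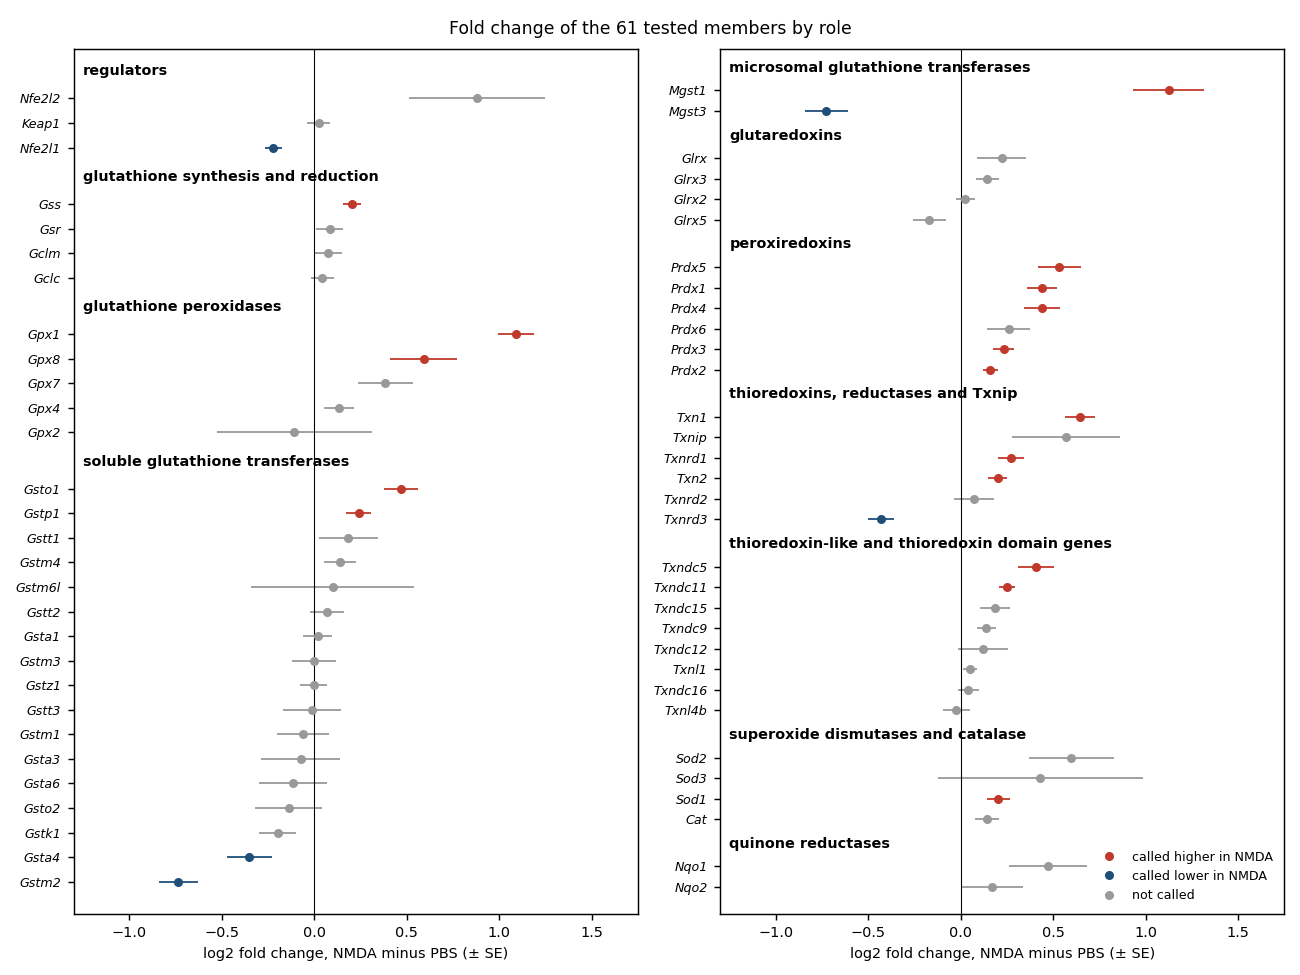
Log2 fold change (NMDA minus PBS) with its SE for the 61 tested genes, grouped by role; red points rose and blue points fell in edgeR's test (adjusted p below 0.05), and grey points were not called. Peroxiredoxins all lay right of 0, while soluble glutathione transferases spread on both sides, from -0.73 (Gstm2) to 0.47 (Gsto1).

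The 10 genes that were not tested had few or no counts. Gpx5, Gsta2, Gsta5 and Txndc8 had 0 of the 326797149 counts of all libraries together, which allows a level of up to 0.00918 CPM (3 counts, counting error only). The other 6 had between 1 count in all (Gpx6, Txndc2) and 100 (Mgst2), with 11 for Gstm3l, 85 for Nfe2l3 and 91 for Gstt4. Gpx5 and Gpx6 are known from the epididymis and olfactory epithelium, and Txndc2 and Txndc8 from sperm.

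Among the glutathione peroxidases, which use glutathione to reduce peroxides, 2 of the 5 tested rose and none fell. The share risen was 40%, against 20.4% of all tested genes higher and 17.5% lower. Gpx1 is the abundant cytosolic selenoenzyme (ENSRNOG00000048812, chromosome 8, 109026905 to 109028024 in the deposited coordinates). It had 40.7, 45.9, 44.2, 54.5, 58.3 and 55.4 CPM in NMDA 1 to NMDA 6, against 25.1, 21.96, 21.5, 21.2, 27.7 and 22.7 CPM in PBS 1 to PBS 6. The lowest NMDA library stood clear of the highest PBS library, and Gpx1 rose by 1.09 ± 0.099 (SE), 2.13-fold (edgeR adjusted p = 1.69e-05). Gpx8, a peroxidase of the endoplasmic reticulum, had 6.55 to 13.2 CPM (median 11.4) with NMDA and 5.02 to 8.73 CPM (median 7.59) with PBS. It rose by 0.59 ± 0.183 (edgeR adjusted p = 0.0216), with overlapping groups and NMDA 1 lowest of the NMDA libraries. Gpx7, its close relative in the same compartment, averaged 3.59 ± 0.623 CPM with NMDA and 2.75 ± 0.458 CPM with PBS (SD), just outside the threshold (0.39 ± 0.148, adjusted p = 0.0565), and passed when NMDA 1, NMDA 5 or PBS 5 was left out (adjusted p down to 0.0195). Gpx4, which repairs lipid peroxides in membranes and guards against ferroptosis, was by far the most abundant per length, with 240.5 FPKM in NMDA libraries and 211.6 FPKM in PBS libraries, 83.1% of the family's summed FPKM over all libraries. Its difference of 0.13 ± 0.081 did not pass (adjusted p = 0.219), and its NMDA range of 281.9 to 360.6 CPM overlapped the PBS range of 239.3 to 338.4 CPM. Summed over the family, peroxidase transcripts came to 304.4 ± 24.7 FPKM with NMDA and 242.4 ± 21.3 FPKM with PBS (SD, n = 6 each).

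Of the 6 peroxiredoxins, 5 rose (83.3%, against 20.4% of all tested genes) and none fell (against 17.5%). The share risen was the highest among the roles with more than 2 tested genes. Prdx1, a cytosolic peroxiredoxin, had 25.8 to 37.1 CPM (median 32.5) in NMDA libraries, against 21.3 to 26.0 CPM (median 23.9) in PBS libraries. Only the lowest NMDA library fell within the PBS range, and Prdx1 rose by 0.44 ± 0.083 (edgeR adjusted p = 0.0012). Prdx5, found in mitochondria, peroxisomes and cytosol, had 68.5 to 108.5 CPM (median 74.8) with NMDA and 50.1 to 66.7 CPM (median 55.6) with PBS. The groups did not overlap, and it rose by 0.53 ± 0.116 (adjusted p = 0.00323). Prdx4, the peroxiredoxin of the endoplasmic reticulum, had 12.04 to 18.2 CPM (median 16.7) with NMDA and 9.93 to 13.2 CPM (median 12.1) with PBS. It rose by 0.44 ± 0.099 (adjusted p = 0.00365) with overlap. The mitochondrial Prdx3 rose by 0.23 ± 0.056 (adjusted p = 0.00573), with 40.5 to 48.7 CPM (median 44.4) in NMDA libraries and 35.5 to 41.4 CPM (median 37.7) in PBS libraries. Prdx2, a second cytosolic peroxiredoxin abundant in neurons, was the most abundant of the family per length (62.4% of its summed FPKM), and its rise of 0.16 ± 0.041 was the smallest of the 5 (adjusted p = 0.00738). It had 190.4 ± 9.75 CPM with NMDA and 170.3 ± 6.29 CPM with PBS (SD, n = 6 each). Prdx6, which uses glutathione in place of thioredoxin, had 30.5 to 42.9 CPM (median 39.3) with NMDA and 27.7 to 44.0 CPM (median 30.3) with PBS. Its difference of 0.26 ± 0.116 did not pass (adjusted p = 0.0957). PBS 6 alone held the top PBS value of Prdx6; without that library the difference was 0.37 and passed (adjusted p = 0.00625), as it did without NMDA 1 (0.31, adjusted p = 0.0371).

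The thioredoxin branch moved in both directions. Txn1 is the cytosolic thioredoxin that recharges peroxiredoxins (ENSRNOG00000012081, chromosome 5, 72711933 to 72724629). It had 21.3 to 26.6 CPM (median 25.8) in NMDA libraries, against 13.6 to 19.2 CPM (median 15.7) in PBS libraries. The groups did not overlap, NMDA 1 was the lowest NMDA library, and Txn1 rose by 0.65 ± 0.082 (edgeR adjusted p = 0.00013). Txn2, its mitochondrial counterpart, had 70.6 to 83.9 CPM (median 80.3) with NMDA and 64.4 to 71.9 CPM (median 68.5) with PBS. It rose by 0.20 ± 0.051 (adjusted p = 0.00764). Txnrd1, the cytosolic selenoenzyme that reduces Txn1, had 62.1 to 87.8 CPM (median 71.8) with NMDA and 57.2 to 64.0 CPM (median 61.01) with PBS. It rose by 0.27 ± 0.07 (adjusted p = 0.00838). The reductases did not move together. Txnrd3, a thioredoxin glutathione reductase best known from testis, fell by 0.43 on the log2 scale (SE 0.07; adjusted p = 0.000492). It had 11.03 to 13.1 CPM (median 11.5) in NMDA libraries, all below the 14.1 to 18.1 CPM (median 15.6) of PBS libraries. The mitochondrial Txnrd2 averaged 18.3 ± 1.90 CPM with NMDA and 17.5 ± 3.09 CPM with PBS (SD), a difference of 0.07 that did not pass (adjusted p = 0.636). Txnip, which binds and inhibits thioredoxin, had 20.0 to 56.3 CPM (median 26.0) with NMDA and 16.0 to 39.7 CPM (median 17.1) with PBS. Its difference of 0.57 ± 0.292 did not pass (adjusted p = 0.147). NMDA 3 and PBS 5 were the highest of their groups for Txnip. Without NMDA 3 the difference was 0.32 (adjusted p = 0.337), and without NMDA 1 and NMDA 3 it was 0.20 (adjusted p = 0.586). Without PBS 5 it was 0.85 and passed (adjusted p = 0.0147), and without both NMDA 3 and PBS 5 it was 0.60 and passed (adjusted p = 0.00291). NMDA 3 and PBS 5 also held the highest summed pericyte and smooth muscle markers of their groups (392.1 and 293.2 CPM) and the highest summed pigment epithelium markers (882.9 and 767.8 CPM), and the part of these cells in the Txnip levels was not tested.

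**Figure D2:**
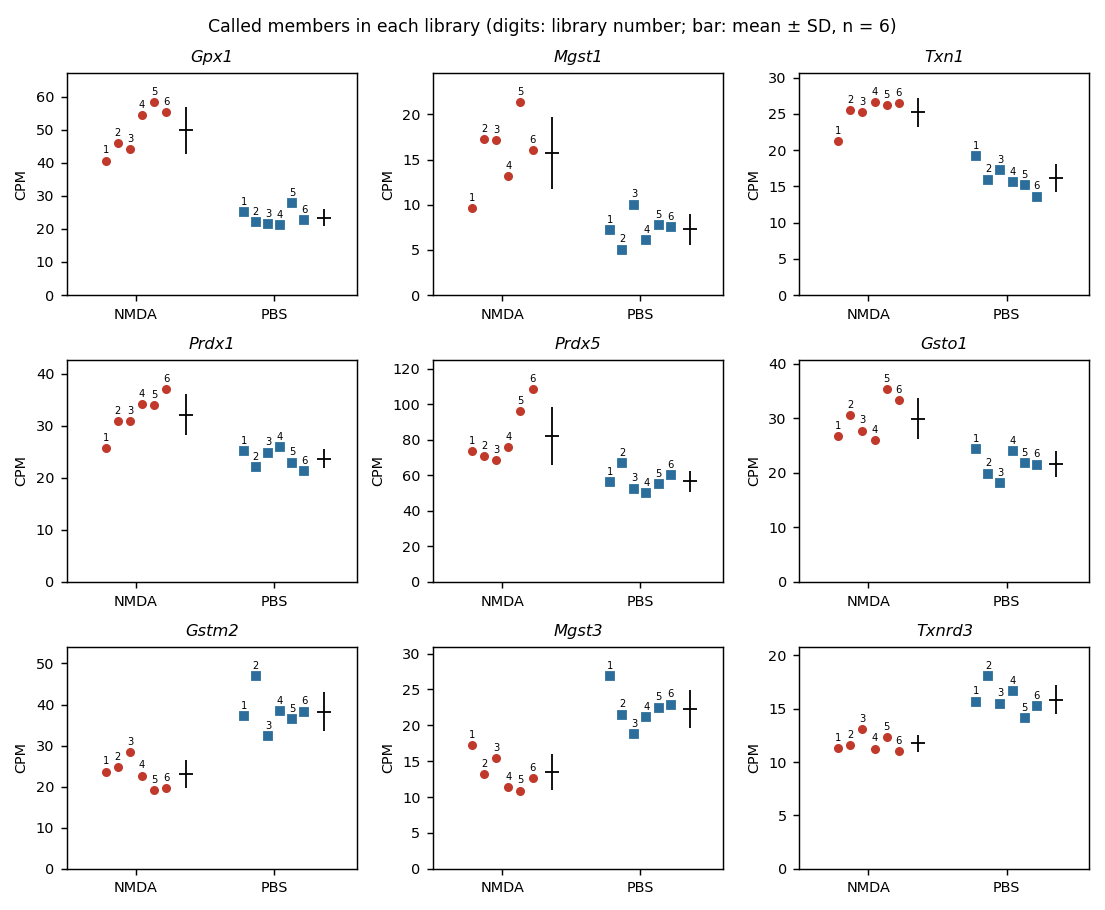
CPM in each library of called genes (NMDA left, PBS right; digits are library numbers, bars the mean ± SD of 6 libraries, axes from 0). Gpx1, Txn1 and Prdx5 show every NMDA library above every PBS library, and Gstm2, Mgst3 and Txnrd3 every NMDA library below.

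Of the 8 tested thioredoxin-like and thioredoxin domain genes, 2 rose, both of the endoplasmic reticulum (25%, against 20.4% of all tested genes). Txndc5, a protein disulfide isomerase, had 47.9 to 78.4 CPM (median 70.8) in NMDA libraries and 48.2 to 55.2 CPM (median 51.8) in PBS libraries. It rose by 0.41 ± 0.097 (edgeR adjusted p = 0.00523). NMDA 1 lay below all PBS libraries for Txndc5, and the other NMDA libraries carried the rise. Txndc11, which takes part in disulfide handling in the same compartment, had 37.1 to 43.6 CPM (median 40.8) with NMDA and 33.1 to 36.7 CPM (median 33.9) with PBS. The groups did not overlap, and it rose by 0.25 ± 0.044 (adjusted p = 0.000829). With Gpx8 and Prdx4 these made 4 risen genes among the 7 assigned to the endoplasmic reticulum, and none of the 7 fell. The membrane-bound microsomal transferases, of which Mgst1 rose and Mgst3 fell, were not assigned to this compartment. Of the 7 assigned to mitochondria, 3 rose (Prdx3, Prdx5 and Txn2) and none fell. Each gene was assigned to a single compartment, so Prdx5 counts as mitochondrial only. These compartment counts stand beside 20.4% of all tested genes higher and 17.5% lower. Txndc9 was just outside the threshold (0.14 ± 0.052, adjusted p = 0.0512), with 47.5 ± 2.16 CPM in NMDA libraries and 43.2 ± 3.14 CPM in PBS libraries (SD). It passed without NMDA 3 (adjusted p = 0.0227) or without PBS 4 (adjusted p = 0.00674). Of 23 alternative settings it passed in 9, library size only and limma voom among them. The annotated span of Txndc9 contains those of Eif5b and Rev1, so the source of some of its reads is uncertain. None of the 4 glutaredoxins, which reduce disulfides with glutathione, was called by edgeR (1 at an unadjusted p below 0.05, 1 by limma voom, 0 by DESeq2); their differences ran from -0.17 (Glrx5) to 0.22 (Glrx). Glrx3 passed without NMDA 3 or without PBS 3 (adjusted p down to 0.0149), Glrx5 without NMDA 3 (-0.23, adjusted p = 0.035) and Glrx without PBS 5 (0.33, adjusted p = 0.0379).

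Of the 4 genes that make and recycle glutathione itself, 1 rose (25%, against 20.4% of all tested genes) and none fell (against 17.5%). Gss, glutathione synthetase, rose by 0.20 ± 0.05 (edgeR adjusted p = 0.00611). It had 26.9 to 31.9 CPM (median 30.5) in NMDA libraries and 24.1 to 27.1 CPM (median 26.1) in PBS libraries, and only the lowest NMDA value fell within the PBS range. Gclc, the catalytic subunit of the rate-limiting ligase, had 39.6 to 44.7 CPM (median 42.2) with NMDA and 37.8 to 48.8 CPM (median 39.8) with PBS. Its modifier subunit Gclm had 10.6 to 12.9 CPM (median 11.8) with NMDA and 10.02 to 12.8 CPM (median 10.9) with PBS. Their differences of 0.045 ± 0.063 (adjusted p = 0.612) and 0.08 ± 0.077 (adjusted p = 0.477) did not pass. Glutathione reductase, Gsr, averaged 36.1 ± 3.65 CPM with NMDA and 34.0 ± 2.72 CPM with PBS (SD), and its difference of 0.09 ± 0.073 did not pass either (adjusted p = 0.388). The NMDA and PBS ranges of Gclc, Gclm and Gsr overlapped.

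Of 17 tested soluble glutathione transferases, which couple glutathione to electrophiles, 2 rose and 2 fell. That is 11.8% each way, against 20.4% of all tested genes higher and 17.5% lower. Gsto1, an omega-class enzyme with thioltransferase activity, had 26.0 to 35.4 CPM (median 29.2) in NMDA libraries, all above the 18.1 to 24.4 CPM (median 21.7) of PBS libraries. It rose by 0.47 ± 0.093 (edgeR adjusted p = 0.00171). Gstp1, the pi-class enzyme, had 44.6 to 56.5 CPM (median 51.4) with NMDA and 39.2 to 48.8 CPM (median 41.9) with PBS. It rose by 0.24 ± 0.068 (adjusted p = 0.0128). Gstm2 is a mu-class enzyme (ENSRNOG00000018937, chromosome 2, 195566701 to 195572203). It had 19.1 to 28.3 CPM (median 23.2) in NMDA libraries, all below the 32.3 to 47.0 CPM (median 37.7) of PBS libraries, and the gene fell by 0.73 on the log2 scale (SE 0.105; adjusted p = 0.000234). The mu-class genes Gstm1, Gstm3, Gstm4 and Gstm6l lie in the same cluster, between 195531495 and 195685323 on chromosome 2. Their differences ran from -0.06 (Gstm1) to 0.14 (Gstm4) with none called, and the difference between Gstm2 and these neighbours was not tested. Gstm6l had the widest SE of these neighbours (0.10 ± 0.439). It had 2.07 to 31.0 CPM with NMDA and 9.04 to 20.8 CPM with PBS, so its value says little about a change. Gstm2 lies within the annotated span of Gstm6l, and mu-class genes are close in sequence, so the split of reads among them is uncertain. Gsta4, which removes the lipid peroxidation product 4-hydroxynonenal, had 11.96 to 18.8 CPM (median 13.5) with NMDA and 14.3 to 20.7 CPM (median 18.3) with PBS. It fell by 0.35 on the log2 scale (SE 0.121; adjusted p = 0.0358). The Gsta4 call was lost when any NMDA library except NMDA 3, or PBS 3, PBS 4 or PBS 5, was left out (adjusted p up to 0.0776 over the alternatives, and as low as 0.0037 without NMDA 3). Gsta1, the most abundant of these transferases per length (36.9% of their summed FPKM), had 166.5 ± 17.6 CPM with NMDA and 164.3 ± 16.4 CPM with PBS (SD), a difference of 0.02 that did not pass (adjusted p = 0.875). The sign of this difference turned, to between -0.04 and -0.03 without NMDA 3 or without PBS 6.

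Of the 2 microsomal transferases that were tested, which are bound to membranes, 1 rose and 1 fell. Mgst1 is a glutathione transferase and peroxidase of membranes (ENSRNOG00000007743, chromosome 4, 171029630 to 171044892). It had 9.66 to 21.4 CPM (median 16.6) in NMDA libraries and 5.02 to 10.02 CPM (median 7.36) in PBS libraries. Only the lowest NMDA library, NMDA 1, fell within the PBS range, and Mgst1 rose 2.18-fold (1.12 ± 0.191; edgeR adjusted p = 0.000682). Mgst3 (ENSRNOG00000004245, chromosome 13, 79526541 to 79547411) had 10.9 to 17.3 CPM (median 12.9) in NMDA libraries, all below the 18.8 to 26.9 CPM (median 21.97) of PBS libraries. It fell by 0.73 on the log2 scale (SE 0.117; adjusted p = 0.000475). The scarce Mgst2, which did not pass the filter, had 3 to 22 counts in NMDA libraries and 0 to 8 counts in PBS libraries. Without the filter its difference was 1.58 and passed (edgeR adjusted p = 0.0332), as it did with DESeq2 (1.62, adjusted p = 0.0187), on a mean of 0.388 FPKM with NMDA and 0.117 FPKM with PBS. The summed FPKM of the microsomal genes came to 26.1 ± 2.85 with NMDA and 25.8 ± 2.24 with PBS (SD, n = 6 each). The annotated span of Mgst3 overlaps that of Aldh9a1, and Gss, Prdx5 and Txndc11 likewise overlap Acss2, Esrra and Snn. Without the strand setting of the counting, reads in such overlaps cannot be told apart.

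**Figure D3:**
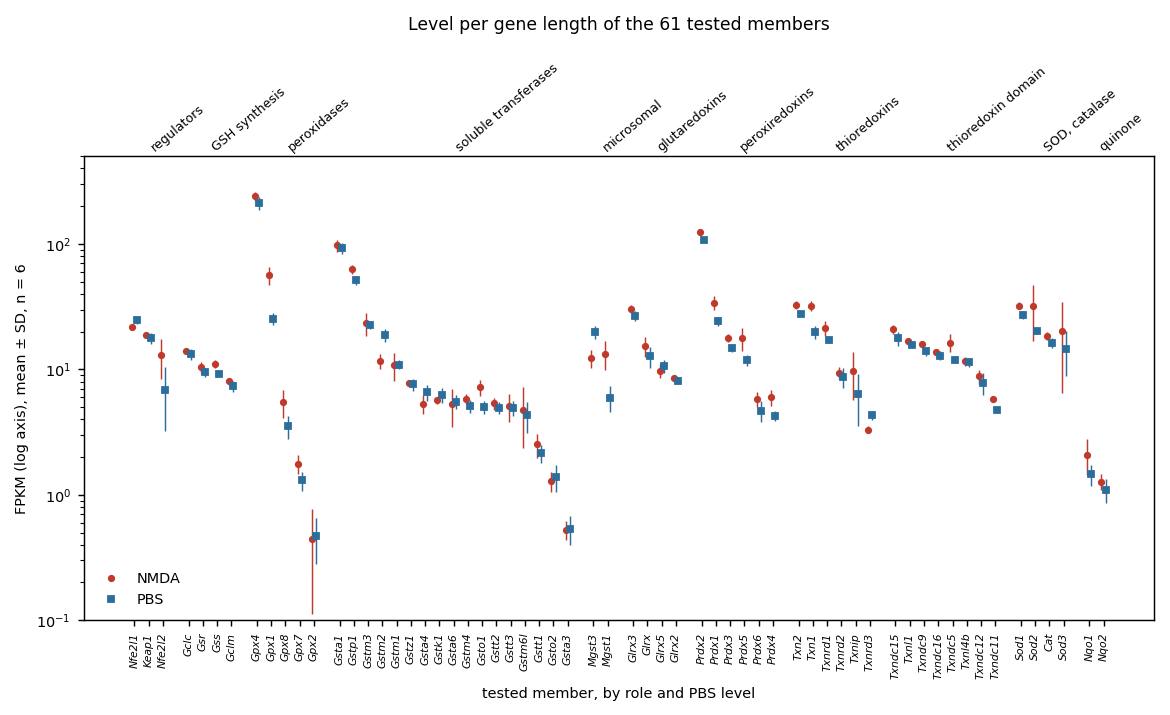
Mean FPKM ± SD (n = 6, log axis) of each of the 61 tested genes in NMDA libraries (circles) and PBS libraries (squares), grouped by role. Gpx4, Prdx2 and Gsta1 stand highest, and the gap between groups is widest for Gpx1 (56.2 FPKM with NMDA, 25.4 FPKM with PBS) and Mgst1 (13.4 FPKM with NMDA, 5.93 FPKM with PBS).

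Of the superoxide dismutases and catalase, edgeR called Sod1 alone. Sod1, the cytosolic copper and zinc enzyme, had 52.8 to 62.0 CPM (median 59.1) in NMDA libraries and 43.3 to 54.4 CPM (median 50.8) in PBS libraries. It rose by 0.20 ± 0.061 (edgeR adjusted p = 0.0186). Without NMDA 1 and NMDA 3 together the call was lost (adjusted p = 0.0888). Sod2, the mitochondrial manganese enzyme and a classic target of inflammatory signalling, had 80.0, 89.6, 99.5, 86.2, 145.5 and 224.5 CPM in NMDA 1 to NMDA 6, against 74.9, 79.1, 83.0, 76.2, 85.5 and 80.5 CPM in PBS 1 to PBS 6. NMDA 5 and NMDA 6 stood far above the other 10 libraries, NMDA 2, NMDA 3 and NMDA 4 also lay above the PBS range, and the difference of 0.60 ± 0.232 did not pass (adjusted p = 0.0609). Without NMDA 6 it was 0.33, and it passed without NMDA 1, NMDA 2 or NMDA 4 (adjusted p down to 0.0343), with DESeq2 (adjusted p = 0.0188) and with library size only (adjusted p = 0.0469). Sod3, the extracellular enzyme, had 2.41, 37.8, 88.6, 31.1, 43.4 and 39.2 CPM in NMDA 1 to NMDA 6, and between 16.7 and 48.2 CPM in PBS libraries. NMDA 1 and NMDA 3 were the lowest and highest of all 12 libraries for Sod3, and its difference of 0.43 ± 0.555 did not pass (adjusted p = 0.587). It was 0.037 without NMDA 3 and 0.67 without NMDA 1. Catalase, Cat, which decomposes hydrogen peroxide in peroxisomes, averaged 46.0 ± 3.54 CPM with NMDA and 41.7 ± 3.31 CPM with PBS (SD), and did not pass (0.14 ± 0.064, adjusted p = 0.0986). Cat passed with library size only (a difference of 0.19) and with limma on log2(FPKM + 1) (0.18).

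EdgeR called none of the 3 tested regulators higher and 1 lower; limma on log2(FPKM + 1) also called Nfe2l2 higher (adjusted p = 0.0407). Nfe2l2, which encodes NRF2, had 36.4, 15.3, 42.5, 38.6, 26.6 and 49.0 CPM in NMDA 1 to NMDA 6, against 10.4, 22.4, 9.34, 28.6, 31.2 and 10.97 CPM in PBS 1 to PBS 6. PBS 2, PBS 4 and PBS 5 lay above NMDA 2, so the groups overlapped widely, and the difference of 0.88 ± 0.366 was not past the threshold (edgeR adjusted p = 0.0791). Leaving out NMDA 2, it was 1.03 and passed (adjusted p = 0.0365), and without PBS 5 it was 1.08 and passed (adjusted p = 0.0405). Keap1, the sensor that holds NRF2 in check, averaged 86.7 ± 2.55 CPM with NMDA and 85.2 ± 9.04 CPM with PBS (SD), a difference of 0.025 ± 0.061 (adjusted p = 0.789), which was -0.015 without PBS 3. Nfe2l1, an NRF2 relative that drives proteasome genes, had 179.7 to 211.3 CPM (median 195.3) in NMDA libraries, all below the 217.0 to 251.9 CPM (median 223.1) of PBS libraries. It fell by 0.22 on the log2 scale (SE 0.047; adjusted p = 0.00264). Nqo1, a quinone reductase widely read as an NRF2 target, averaged 5.31 ± 1.65 CPM with NMDA and 3.82 ± 0.714 CPM with PBS (SD). Its difference of 0.47 ± 0.21 did not pass (adjusted p = 0.0938), but without NMDA 1 it was 0.59 and passed (adjusted p = 0.0127). Its relative Nqo2 averaged 2.19 ± 0.314 CPM with NMDA and 1.96 ± 0.419 CPM with PBS (SD) and did not pass (0.17 ± 0.164, adjusted p = 0.448).

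**Figure D4:**
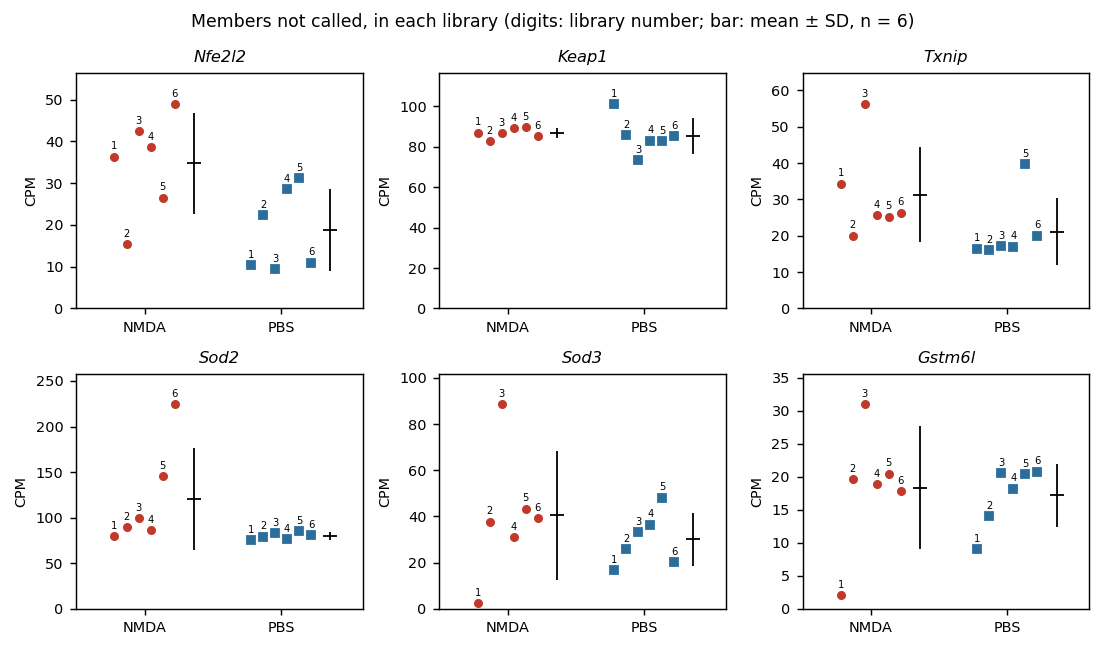
CPM in each library of 6 genes that were not called (NMDA left, PBS right; digits are library numbers, bars the mean ± SD of 6 libraries). Nfe2l2 spreads widely in both groups, Sod2 is highest in NMDA 5 and NMDA 6, and NMDA 1 and NMDA 3 mark the ends of Sod3.

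NRF2 binds DNA at the antioxidant response element, and the promoters were searched for its core, TGACNNNGC, on both strands, in windows of 250 bases before to 50 bases after each gene's start in RefSeq (GRCr8). Windows could be matched to 55 of the 71 genes, and 7 of the other 16 were left out because their transferase symbols may name different genes in RefSeq and in the deposited table. The core was found in 7 of 16 risen genes with a window (43.8%; Gstp1, Prdx1, Prdx4, Prdx5, Txndc5, Txndc11 and Txnrd1), in 0 of 5 fallen genes and in 6 of 28 genes that were not called (21.4%). It was found in 3602 of 27457 genes with a window overall (13.1%), and in 13.5% of protein-coding genes. A match describes these letters only, and its part in the changes was not tested. Windows to print were taken only from those that hold the core. Those of Prdx1, Gstp1 and Txnrd1 are shown, from a peroxiredoxin, a transferase and a reductase that rose. Other risen peroxiredoxins and transferases, such as Prdx2, Prdx3, Gsto1 and Mgst1, had no match. Each printed window runs 5′ to 3′ on the gene's strand with the core in capitals.
Prdx1, chr5:135383656-135383955 (+): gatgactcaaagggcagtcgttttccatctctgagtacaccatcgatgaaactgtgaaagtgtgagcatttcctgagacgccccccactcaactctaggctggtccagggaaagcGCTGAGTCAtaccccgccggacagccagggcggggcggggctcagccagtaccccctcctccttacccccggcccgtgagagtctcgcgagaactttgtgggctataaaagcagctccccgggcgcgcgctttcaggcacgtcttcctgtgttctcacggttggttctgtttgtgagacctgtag
Gstp1, chr1:210769656-210769955 (−): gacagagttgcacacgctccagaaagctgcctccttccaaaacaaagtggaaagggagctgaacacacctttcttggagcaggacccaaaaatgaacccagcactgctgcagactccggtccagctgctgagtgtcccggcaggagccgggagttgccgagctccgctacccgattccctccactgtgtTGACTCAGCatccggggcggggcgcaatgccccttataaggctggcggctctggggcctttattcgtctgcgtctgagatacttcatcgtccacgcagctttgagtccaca
Txnrd1, chr7:22755855-22756154 (−): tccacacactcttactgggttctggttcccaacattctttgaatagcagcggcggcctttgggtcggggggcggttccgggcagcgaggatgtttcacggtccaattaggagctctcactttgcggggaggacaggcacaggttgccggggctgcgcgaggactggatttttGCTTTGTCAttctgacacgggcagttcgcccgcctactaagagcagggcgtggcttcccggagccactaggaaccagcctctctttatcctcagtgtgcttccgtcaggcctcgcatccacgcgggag

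In Prdx1 and in 1 of the 2 windows of Txnrd1 the core reads on the opposite strand (GCTGAGTCA and GCTTTGTCA), and in Gstp1 on the gene's own strand (TGACTCAGC, whose first base lies 61 bases before the start). The core was also present in the windows of Nfe2l2, Sod2 and Gclm, none of which was called, and absent from those of the other called genes with a window, the strongest risers Gpx1, Mgst1 and Txn1 among them. It was absent too from the windows of Nqo1 and Gclc, which were not called. Sequence outside the windows was not searched, so absence here is not absence from a gene's regulatory regions.

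Other genes of the same chemistry, from 4 pathway lists, were counted beside the members, against a background of 20.4% of all tested genes higher and 17.5% lower. In glutathione turnover and cysteine supply, 8 of 20 tested genes rose and 3 fell (median 0.19). The smallest adjusted p belonged to Anpep, an aminopeptidase that can cleave the cysteine dipeptide left from glutathione (12.3 ± 3.87 CPM with NMDA, 2.25 ± 0.823 CPM with PBS; a rise of 2.45, edgeR adjusted p = 3.89e-05). Lap3, a further aminopeptidase, rose by 0.86 (adjusted p = 5.15e-05), Esd by 0.415 and the dipeptidase Cndp2 by 0.22. The 3 that fell were Slc1a1 (-0.32), Cdo1 (-0.51) and Ggt7 (-0.16). The cystine importer Slc7a11 was not called (0.24 ± 0.391, adjusted p = 0.678), nor was the glutathione-degrading Chac1 (-0.07 ± 0.153, adjusted p = 0.753). In NADPH supply, 5 of 13 rose and none fell (median 0.18), among them Mthfd1 of the folate pathway (0.54), Pgls and Taldo1 of the pentose phosphate pathway (0.71 and 0.40) and the mitochondrial transhydrogenase Nnt (0.63). Of other NRF2 target and regulator genes, 8 of 22 rose and 2 fell (median 0.19). Hmox1, haem oxygenase, had 6.29 to 23.9 CPM with NMDA, and averaged 12.5 ± 6.36 CPM against 1.80 ± 0.870 CPM with PBS (a rise of 2.80, adjusted p = 0.000213). Maff (1.38), the receptor kinase Epha2 (1.05) and ferritin light chain Ftl1 (0.62) also rose. The 2 that fell were Slc6a9 (-0.30) and Sqstm1 (-0.20). Of other peroxide and methionine repair genes, 4 of 18 rose and none fell (median 0.05): Park7 (0.45), Nxn (0.30), Sepsecs (0.20) and Ccs (0.145), but only 2 of them when NMDA 2, NMDA 5, NMDA 6, PBS 1, PBS 3 or PBS 5 was left out.

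Markers of retinal cell types moved in the same libraries. All 12 microglia and macrophage markers rose, with summed levels of 138 to 290.3 CPM in NMDA libraries, against 66.3 to 109.3 CPM in PBS libraries; Csf1r, the most abundant, rose by 0.76 and Itgam by 2.00. Of 11 tested Müller glia markers 7 fell and 2, Vim and Crym, rose, with sums of 4479 to 5510 CPM with NMDA and 5550 to 7297 CPM with PBS; the abundant Glul and Dkk3 fell by 1.05 and 0.70 on the log2 scale. Ganglion cell markers fell in 8 of 10 cases (239 to 585.5 CPM with NMDA, 823.3 to 984.4 CPM with PBS), and rod markers in 8 of 12 (40760 to 57980 CPM with NMDA, 56900 to 60250 CPM with PBS). Endothelial markers rose in 4 of 9 cases (in 7 without PBS 5). Their sums were 756.6 to 1005 CPM with NMDA and 734 to 818 CPM with PBS. Most of these sums came from Kdr, which was not called (means of 709.8 CPM with NMDA and 650.6 CPM with PBS). Pigment epithelium markers fell in 4 of 9 cases (199.7 to 882.9 CPM with NMDA, 454.2 to 767.8 CPM with PBS). Rlbp1 is in both the Müller glia and the pigment epithelium lists; without it, 3 of 8 pigment epithelium markers fell (36.2 to 718.7 CPM with NMDA, 141.8 to 523.6 CPM with PBS). Of 9 pericyte and smooth muscle markers 1 rose and 1, Rgs5, fell with an adjusted p of 0.0495, a call that most libraries left out in turn ended (116.3 to 392.1 CPM with NMDA, 141 to 293.2 CPM with PBS). No lens marker was called among 12 by edgeR, DESeq2 or limma, and 0 had an unadjusted p below 0.05 (69.5 to 3004 CPM with NMDA, NMDA 1 lowest; 565.8 to 2644 CPM with PBS). EdgeR called none of 4 tested erythrocyte markers (2 at an unadjusted p below 0.05, 2 by DESeq2; 138.6 to 307.4 CPM with NMDA, 121.2 to 194.1 CPM with PBS), though 1 was called without NMDA 2 or NMDA 5 and 2 without PBS 3. No marker was at 0 in every library, and the part of these cell types in the changes of Gpx1, Mgst1, Gstm2, Mgst3 and the other genes was not tested.

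**Figure D5:**
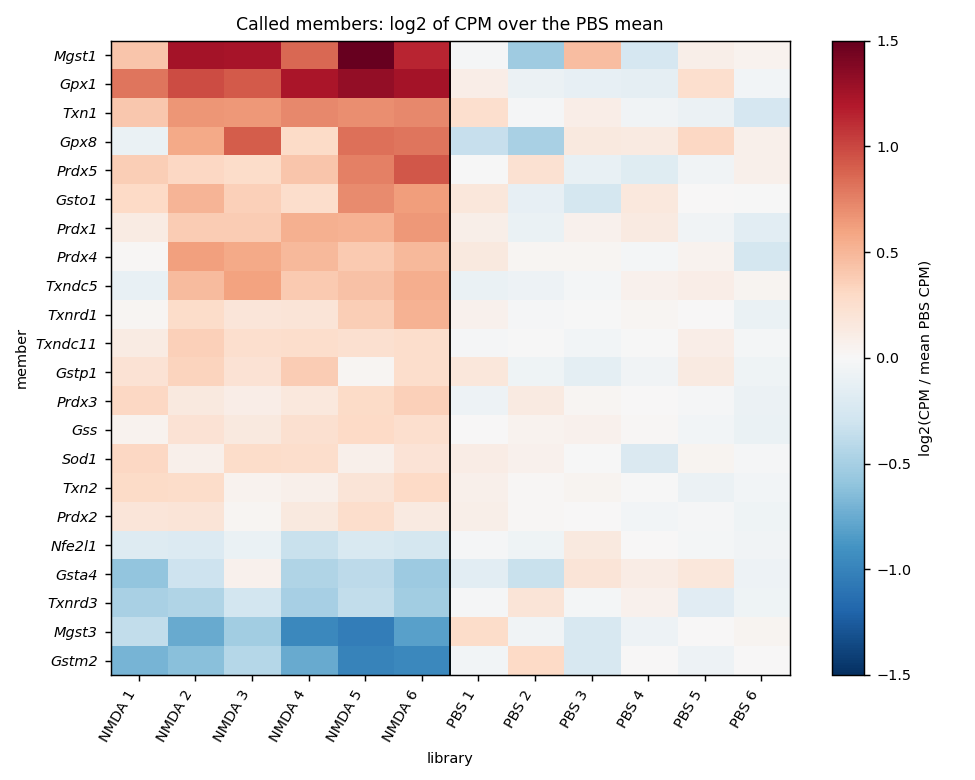
Log2 CPM of the 22 called genes in each library relative to the mean of the PBS libraries (NMDA columns left, PBS columns right). Gpx1 ranges from 0.80 to 1.32 and Txn1 from 0.40 to 0.72 over NMDA libraries, while NMDA 1 stays below the PBS mean for Gpx8 at -0.10.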

How the data were processed

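Per the file headers and the values, the deposited table gives, for each of 12 retinal libraries (6 NMDA, 6 PBS), whole read counts per gene that the authors did not scale, and FPKM values deposited beside them, scaled to gene length and library total. Bowtie2, RSEM 1.3.1 and DESeq2 1.4.5 appear in the submitters' processing notes, with no role given. The sources used here state no genome build, strand setting or treatment of multiply mapped reads. RSEM estimates need not be whole, so the counts may have been rounded.

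Counts were filtered with filterByExpr (count minimum 10, total minimum 15), scaled by TMM (factors 0.976 to 1.034) and tested with edgeR 4.0.16 in R 4.3.3 (robust quasi-likelihood, two-sided, group as the only term), with Benjamini-Hochberg adjustment over 16260 genes. FPKM values served for levels between genes and for limma 3.58.1 alternatives. On simulated counts the test was checked before use. A rule on annotation and symbol picked the genes. Earlier results of these data were known when that rule and the pathway and marker lists were set. Named were all called genes and a set of core enzymes and regulators. Up to 4 genes per pathway list, by smallest adjusted p, and abundant markers were also named. Gpx7, Txndc9, the glutaredoxins, Gsta1, Gstm6l and the single markers Vim, Crym and Rgs5 were chosen after their values were seen. So were the fallen genes of the pathway lists.

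Libraries held 16415611 to 34022023 counts. The floor given for genes with no count covers counting error only, while the SD and SE also include the spread between libraries. No 2 libraries had identical counts. The labels name separate rats but no litter, day or batch. Alternatives were DESeq2 (1.42.0) size factors and Wald test, library size only, other filters, limma voom, limma on log2(FPKM + 1) and log2(FPKM + 0.1), a replicate block, and each library left out. Same-numbered libraries were not treated as pairs. Recounting the lists, and giving the filtered genes without the filter, were added after the data were seen. Windows around gene starts came from RefSeq (GRCr8), matched by symbol, and a gene with several windows counted if any held the core. No pathway or marker list was tested as a set.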

Additional observations from a re-analysis of the deposited data

Results flagged for a closer look

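In 16 of 122 combinations of a tested gene and a group (13.1%), the highest or lowest library stood apart from the other 5 by Dixon's criterion; chance flags about 1 in 20. In NMDA libraries, NMDA 3 stood high for Gsta1 (199.9 CPM) and for the scarce Gpx2 (1.103 CPM), and low for Txndc9 (43.41 CPM). NMDA 1 stood low for Txn1 (21.27 CPM) and Txndc5 (47.87 CPM), and NMDA 4 high for Gstz1 (21.57 CPM). In PBS libraries, PBS 3, the library with the fewest counts, stood high for Gclc (48.83 CPM), Nfe2l1 (251.9 CPM) and Txnrd2 (23.7 CPM). PBS 4 stood high for Gsta6 (7.329 CPM) and Txndc9 (49.3 CPM), and PBS 5 for Glrx (22.77 CPM), Txndc11 (36.74 CPM) and Txnip (39.71 CPM). PBS 6 stood high for Gstt3 (23.52 CPM) and Prdx6 (44.01 CPM). Each of NMDA 3, PBS 3 and PBS 5 was named in 3 of the 16.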

How the results depend on the processing

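Over 23 settings and 43 named genes, 921 of 984 values kept their direction and their side of the threshold, 12 calls were lost and 46 gained, and 5 values of genes that were not called changed sign. Calls were lost only for Gsta4, in 11 settings, and for Sod1, in 1. The values that changed sign were Keap1 (-0.015 without PBS 3; -0.015 to 0.079 with each library left out) and Gsta1 (-0.04 without NMDA 3, -0.027 without PBS 6; -0.04 to 0.05 with each library left out, -0.027 without NMDA 1 and NMDA 3, -0.042 without PBS 5 and NMDA 3); the cause was not tested. Between 16 and 23 genes rose and between 4 and 6 fell over all settings (17 to 21 and 4 to 6 with each library left out, when 5287 to 6629 genes were called in all). Higher genes made up 64.6% of calls with library size only and 63.9% and 64.1% with limma on FPKM, against 53.8%.

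Among the lists, counts that moved by more than 1.5 times were small. Without the filter, 2 repair genes rose and 0 pericyte markers fell. With the filter of 10 CPM in 6 libraries, which tests fewer genes, 7 microglial markers, 3 of the NRF2 list and 1 erythrocyte marker rose, and 2 pigment epithelium markers fell. Limma voom called 1 NADPH gene and 3 repair genes lower. Erythrocyte markers called higher numbered 1 with library size only, 1 with each limma fit on FPKM, 2 with DESeq2 and 2 with the replicate block; library size only and the block called 0 pericyte markers lower. Without NMDA 1 and NMDA 3, 1 NADPH gene and 2 repair genes fell. Without PBS 5 and NMDA 3, 7 endothelial markers and 2 repair genes rose, and 2 pericyte markers and 1 NADPH gene fell. With each library left out in turn, endothelial markers higher ranged from 4 to 7, erythrocyte markers higher from 0 to 2, pericyte markers lower from 0 to 1, NADPH genes lower from 0 to 1, repair genes higher from 2 to 4 and repair genes lower from 0 to 2.

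With the replicate number as a block, 5593 genes were called, 18 of the genes described here higher and 5 lower, and Prdx6 gained a call (adjusted p = 0.0276); the difference of Sod3, which was not called, was 0.096. Nothing in the labels ties equal numbers together. After each gene's group mean of log2 CPM was subtracted, the remaining deviations of same-numbered libraries correlated between -0.19 and 0.153. By this measure 0 of 6 numbers matched best with themselves. Of the 10 genes that the filter removed, 4 had no count. Without the filter, Mgst2 was called higher (adjusted p = 0.0332).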

Other observations

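The deposited FPKM values, which are scaled to library totals without TMM, were also summed over each family. Peroxiredoxins came to 189.5 to 224.4 FPKM in NMDA libraries and 159.9 to 173.5 FPKM in PBS libraries. Thioredoxins, their reductases and Txnip came to 100.2 to 114.4 FPKM with NMDA and 76.9 to 87.7 FPKM with PBS. Both pairs of ranges, like those of the peroxidases (280.7 to 342.7 FPKM with NMDA, 207.3 to 268.7 FPKM with PBS), did not overlap. Soluble transferases overlapped, at 228.3 to 305.9 FPKM with NMDA and 232.8 to 260.1 FPKM with PBS, and NMDA 1 and NMDA 3 held both ends. These are sums of levels without a test.

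Gpx3, the secreted glutathione peroxidase, is annotated as a long non-coding RNA in the deposited table and is therefore not among the 71 genes. It had 11.8 to 60.3 CPM with NMDA and 23.0 to 60.4 CPM with PBS (log2 fold change -0.18 ± 0.344, edgeR adjusted p = 0.731), and NMDA 1 was its lowest library, as for Sod3.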
